A study of Homo sapiens with 8 samples.

Results

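The clustered protocadherin genes were examined for DAXX, DNMT1 and H3(Lys4) peaks in PC3 cells. Members were the protein-coding genes of chromosome 5 in the GENCODE hg19 annotation whose symbols begin with PCDHA, PCDHB or PCDHG followed by a cluster letter or number. This rule found 53 of 19785 protein-coding genes, all on the + strand. The alpha cluster holds 15 genes (chr5:140165721-140391932), the beta cluster 16 (chr5:140430959-140628933) and the gamma cluster 22 (chr5:140710081-140892544). With 50 kb added on either side, the 3 clusters join into a single region, chr5:140115721-140942544, of 827 kb. Peaks were counted once, by the position of their centre.

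PC3 is a prostate cancer line from a bone metastasis. WT cells (wild type in the labels, a control shRNA line in the series text) were compared with cells carrying a stable DAXX shRNA knockdown (K/D), whose medium also contained puromycin. The study called peaks for 1 library per antibody and cell line, which gave 6 lists from 8 samples, the others being inputs. The histone antibody carries the label DMHH3(Lys4). Its prefix has no explanation in the labels and is dropped from the name used below. The libraries held 12050101 to 18705056 tags, of which peaks took 15.8% in WT DAXX and 6.83% in K/D DAXX. With no replicates, WT and K/D values are set side by side without a test, and intervals cover counting error only. The libraries are bulk samples, so a peak present in few cells and a weak peak present in most cells cannot be told apart. The lists hold no measure of the amount of DAXX in either line.

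Clustered protocadherins are cell adhesion proteins best known for giving neurons distinct surface identities. In the alpha and gamma clusters, each gene has its own promoter and a large variable first exon, which is spliced to constant exons shared by the whole cluster, whereas the beta genes are single coding units. CTCF and cohesin bring a chosen promoter to distal enhancers, the promoters and variable exons can be silenced by CpG methylation, and the C-type genes at the ends of the alpha and gamma clusters are used more uniformly than the others. DAXX is a histone chaperone and co-repressor, and DNMT1 maintains CpG methylation.

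DAXX peaks lay in the alpha cluster, just after it and around the 3′ end of the gamma cluster, while the beta cluster and all gamma gene starts lay in a long stretch without any. The region held 10 WT DAXX peaks, or 12.1 per Mb (95% Poisson interval 5.80 to 22.2), against 21.2 per Mb on the rest of chromosome 5. In K/D cells it held 9, or 10.9 per Mb (4.98 to 20.7), against 14.97. The ratio of region to rest was 0.570 (0.274 to 1.05) in WT and 0.727 (0.332 to 1.38) in K/D, so both intervals include 1. With both lists cut to the length of the shorter, the WT ratio was 0.327 (0.0891 to 0.837, 4 peaks), an interval below 1, and the K/D ratio stayed at 0.727. This depended on the cut. The WT ratio was 0.479 (0.131 to 1.23, 4 peaks) with the first 50% of the list and 0.467 (0.171 to 1.02, 6 peaks) without the flank. Both of these intervals include 1. Chromosome 5 was cut into stretches of the same length, and the 214 with less than 10% gap sequence were ranked. Their median was 16 WT DAXX peaks, and 57 stretches held fewer peaks than the protocadherin region while 150 held more. For K/D DAXX the median was 11, with 77 stretches below the region and 124 above it. The region is dense in genes, with 58 protein-coding genes that start inside it against a median of 3 per stretch.

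**Figure D1:**
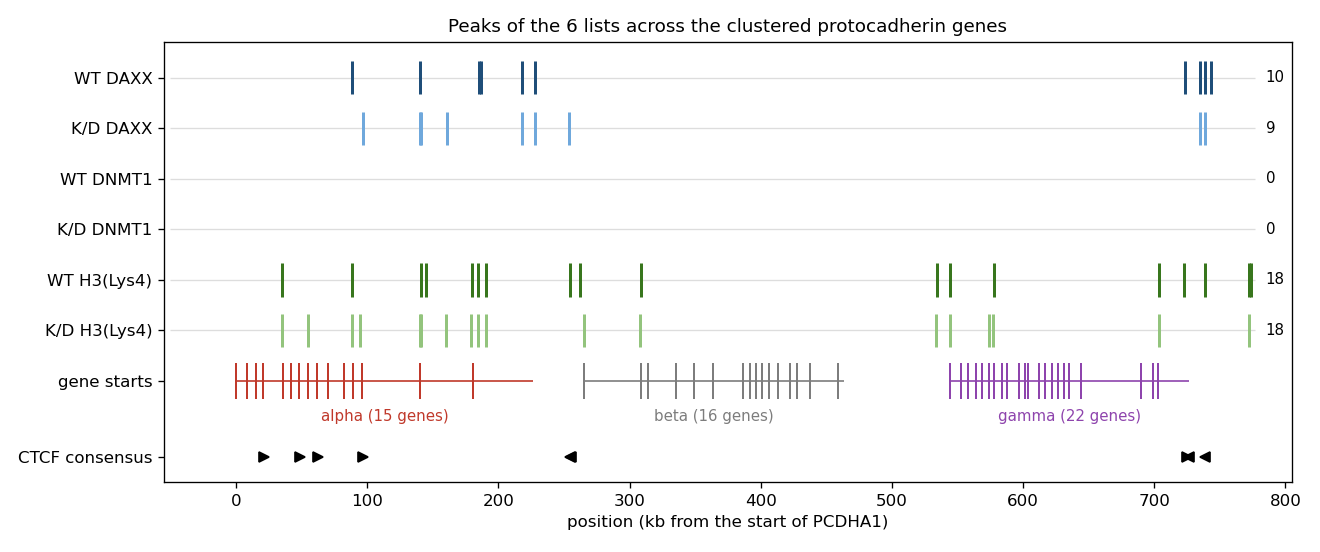
Peak centres of the 6 lists (vertical marks, with the count at the right), gene starts of the 3 clusters and matches to the CTCF consensus (arrowheads show the strand), in kb from the start of PCDHA1. DAXX marks are seen in the alpha cluster, just after it and at the far end of the gamma cluster, and DNMT1 rows are empty.

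By section, the alpha cluster held 5 DAXX peaks in each cell line. The space between alpha and beta held 1 in WT and 2 in K/D, the beta cluster and the space between beta and gamma held 0 in both, the gamma cluster held 1 in WT and 0 in K/D, and the flank after gamma held 3 in WT and 2 in K/D. No DAXX peak lay in the 50 kb before PCDHA1. The stretch without a WT DAXX peak ran for 495 kb, from chr5:140393946 to chr5:140888977, and ranked 29th in length among the 3754 such stretches of chromosome 5, where the median was 18.0 kb. In K/D it ran for 481 kb and ranked 31st of 2651. With both lists joined, 470 kb held no DAXX peak, the 22nd longest of 6411, and this stretch contained the starts of 38 members, namely all 16 beta and all 22 gamma genes.

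**Figure D2:**
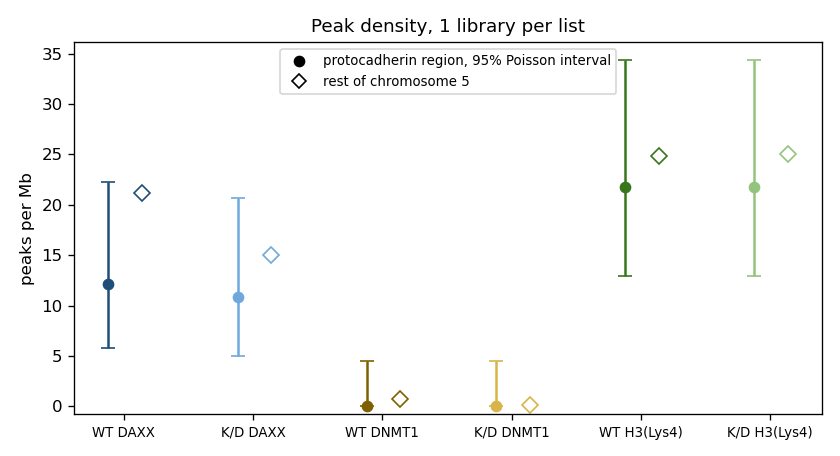
Peaks per Mb in the protocadherin region (filled circles, bars are 95% Poisson intervals) and on the rest of chromosome 5 (open diamonds), 1 library per list. The DAXX circles at 12.1 and 10.9 lie below their diamonds at 21.2 and 14.97, but within the reach of their intervals.

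DNMT1 peaks were absent from the region in both lists. A count of 0 over 827 kb allows up to 4.46 peaks per Mb by the exact Poisson interval, or 3.63 per Mb by a simpler floor of 3 counts. Both limits lie above the 0.707 per Mb of WT DNMT1 and the 0.164 per Mb of K/D DNMT1 on the rest of chromosome 5. A deficit was therefore not detectable at this depth. The 0 depends on the flank: with 100 kb on either side, 1 WT DNMT1 peak (ratio 1.54, 0.0389 to 8.57) and 2 K/D DNMT1 peaks (ratio 14.1, 1.71 to 51.0) fell inside. Among the stretches of equal length, 134 of 214 held no WT DNMT1 peak and 191 held no K/D DNMT1 peak. No member had a DNMT1 peak within 10 kb, against 2.55% of all genes in WT and 0.89% in K/D. The peaks inside the wider flank were K/D peaks at chr5:140091014-140091134 and chr5:140098375-140098495, with centres 74.6 and 67.3 kb before PCDHA1, and a WT peak at chr5:140971867-140971995, in an intron of DIAPH1, 103 kb after the nearest start, that of PCDHGC5.

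**Figure D3:**
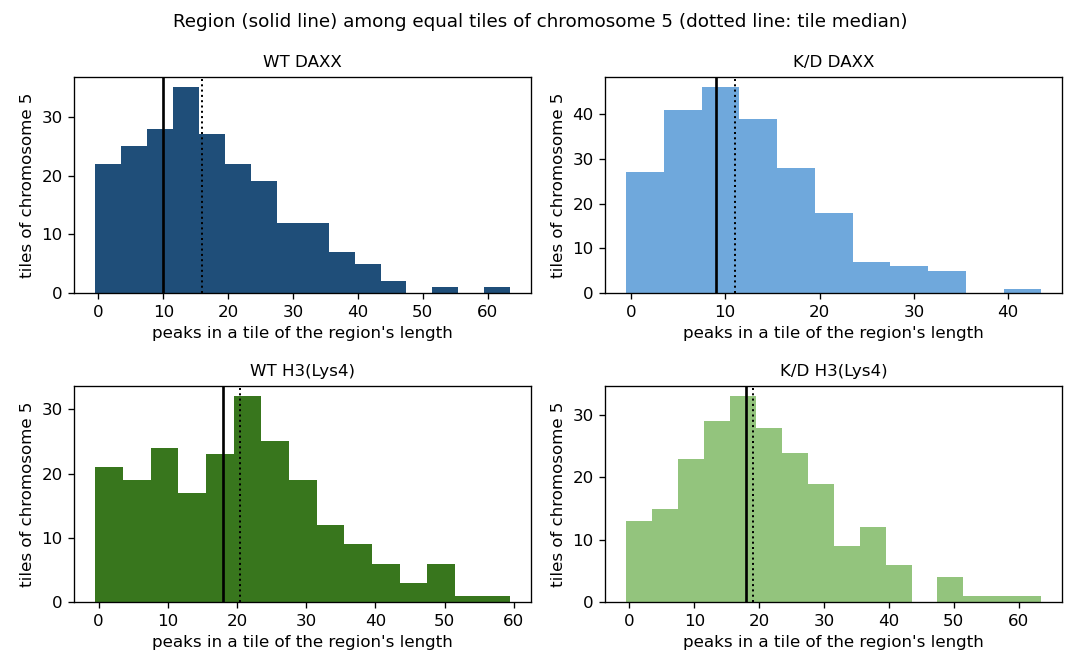
Number of peaks in 218 stretches of chromosome 5, each as long as the protocadherin region (histograms), for DAXX and H3(Lys4) in WT and K/D. The histograms include stretches with 10% or more gap sequence. Solid lines mark the region (10 and 9 DAXX peaks, 18 and 18 H3(Lys4) peaks). Dotted lines mark the medians of the 214 stretches with less gap sequence than that (16, 11, 20.5 and 19).

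Few members lay near a DAXX peak. In WT, 5 of 53 members had a peak centre within 10 kb of a start (PCDHA11, PCDHA12, PCDHA13, PCDHAC1 and PCDHAC2), against 51.2% of all protein-coding genes. In K/D, 3 did (PCDHA12, PCDHA13 and PCDHAC1), against 41.8%. Within 1 kb there were 2 members in WT, PCDHA12 and PCDHAC1, against 25.7% of genes, and 2 in K/D, PCDHA13 and PCDHAC1, against 19.2%. All of these are alpha genes, and the members share peaks and lie side by side, so they are not independent points. The median distance to a WT DAXX peak was 106 kb for the members and 9.14 kb for the other protein-coding genes, and in K/D it was 108 kb and 15.4 kb. By cluster, the WT medians were 33.2 kb for alpha, 166 kb for beta and 119 kb for gamma. In alpha the distances ran from 0.029 kb at PCDHAC1 to 79.6 kb at PCDHA2, in beta from 37.01 kb at PCDHB1 to 231 kb at PCDHB15, and in gamma from 20.2 kb at PCDHGC5 to 179 kb at PCDHGA1.

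**Figure D4:**
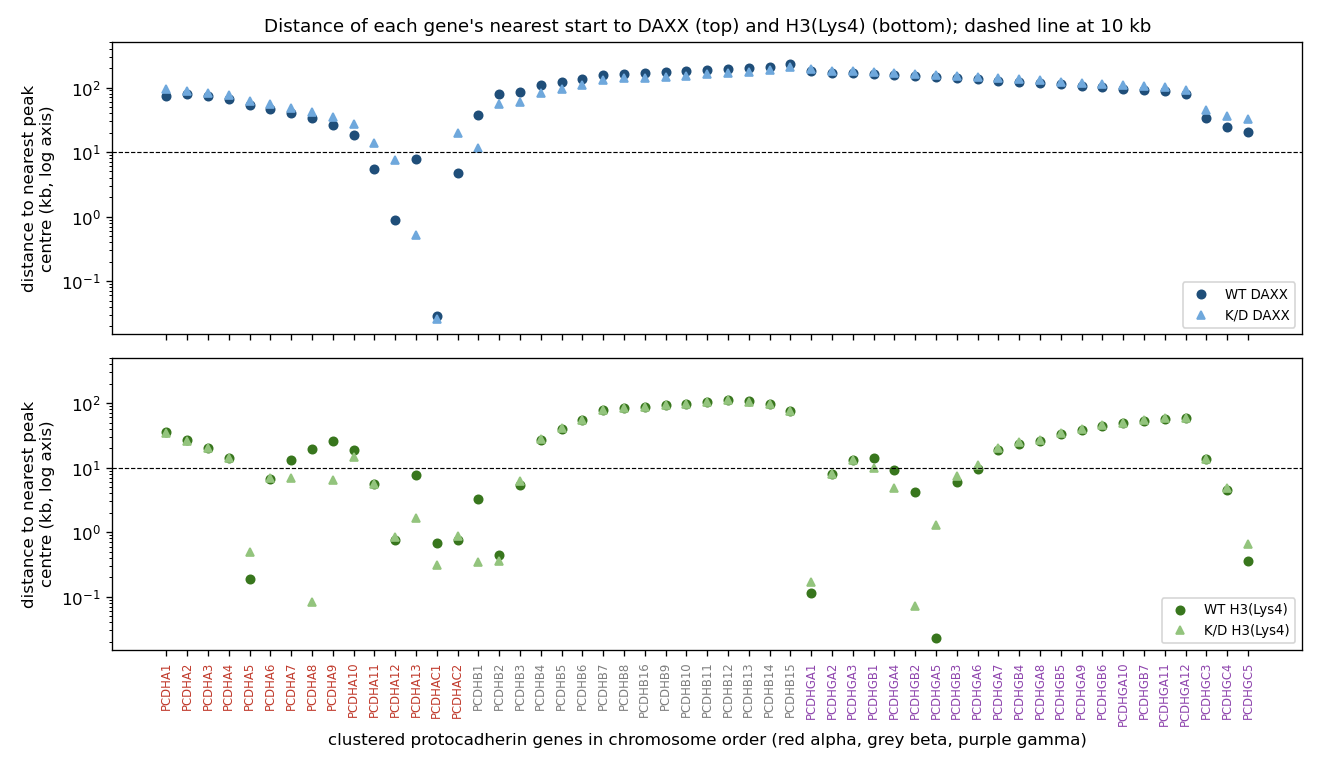
Distance in kb (log axis) from each gene, in chromosome order, to the nearest DAXX peak (top) and H3(Lys4) peak (bottom) in WT (circles) and K/D (triangles), with a dashed line at 10 kb. PCDHAC1 is lowest for DAXX in both lines at 0.029 and 0.026 kb, and the beta and gamma genes form an unbroken run above the line.

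The C-type gene PCDHAC1 was the member with DAXX on its start in both cell lines. The WT peak at chr5:140305840-140306012 had its centre 29 bp before the nearest annotated start, and the K/D peak at chr5:140305844-140306014 had its centre 26 bp before it. Both span the start of the main transcript and hold no coding bases, and both overlap the WT H3(Lys4) region chr5:140305736-140307522. Neither overlaps a K/D H3(Lys4) region, the nearest lying 14 bp from the WT peak and 18 bp from the K/D peak. A second DAXX peak appeared in the K/D list alone at chr5:140306681-140306851, 811 bp after the start and within the coding part of the first exon. This second peak lay on a K/D H3(Lys4) region and also on the WT H3(Lys4) region named above. The sequence of the shared peak is shown because it held the most CpG among the DAXX peaks of the region, with 18, a G+C content of 71.7% and the GGGCGG box of SP1, in capitals, once on each strand.
PCDHAC1 start, WT DAXX, chr5:140305840-140306012, + strand: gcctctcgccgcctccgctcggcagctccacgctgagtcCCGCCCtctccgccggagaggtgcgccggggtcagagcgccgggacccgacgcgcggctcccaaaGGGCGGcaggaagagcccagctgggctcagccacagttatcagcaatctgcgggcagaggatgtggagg

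PCDHA12 and PCDHA13, the last of the regular alpha genes, had DAXX peaks in different lists. The WT peak at chr5:140253932-140254104 lay 870 bp before PCDHA12, on an H3(Lys4) region found in both cell lines but not on a K/D DAXX peak. It held 0 CpG and no match to the motifs searched, and it stood at place 57606 of 59778 in the deposited list, which HOMER orders by strength. The K/D peak at chr5:140262286-140262456 lay 516 bp after the start of PCDHA13 and all of its 171 bases were coding. It stood at place 36204 of 42894. The peaks were 8181 bp apart, with no other DAXX peak between them. Its sequence carries a match to the core consensus of CTCF, in capitals, 55 bp from the peak centre.
PCDHA13 first exon, K/D DAXX, chr5:140262286-140262456, + strand: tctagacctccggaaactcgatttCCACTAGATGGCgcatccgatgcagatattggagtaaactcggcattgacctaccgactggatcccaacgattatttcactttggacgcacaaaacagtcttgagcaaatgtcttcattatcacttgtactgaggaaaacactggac

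The same CTCF core was found at the matching place in other alpha exons. A 12-base CTCF consensus, searched on both strands, had 9 matches in the region, or 10.9 per Mb, against 2.64 per Mb on the rest of chromosome 5. Of these, 4 lay in the coding first exons of PCDHA4, PCDHA7, PCDHA9 and PCDHA13, all on the + strand and 456 to 570 bp after the nearest start. A further 2 lay on the - strand between the alpha and beta clusters, 997 bases apart, and the gamma cluster held 2, of which 1 fell in a coding exon shared by all 22 gamma genes, while the beta cluster held 0. The remaining match lay under the DAXX peaks at DIAPH1. Only exact matches to this 12-base pattern were counted, so a count of 0 does not show that CTCF sites are absent. The alpha genes are known to carry CTCF sites in their promoters and variable exons, and the alpha enhancer downstream of them to carry sites in the opposite direction. The alpha and intergenic matches are shown with 10 bases on either side, 5′ to 3′ along the strand of the match, with the match in capitals.
PCDHA4 exon 1, chr5:140187229-140187240, + strand: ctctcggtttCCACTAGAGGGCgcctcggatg
PCDHA7 exon 1, chr5:140214425-140214436, + strand: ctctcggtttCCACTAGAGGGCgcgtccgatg
PCDHA9 exon 1, chr5:140228537-140228548, + strand: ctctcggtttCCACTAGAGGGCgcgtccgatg
PCDHA13 exon 1, chr5:140262310-140262321, + strand: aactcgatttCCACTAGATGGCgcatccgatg
between alpha and beta, chr5:140419948-140419959, - strand: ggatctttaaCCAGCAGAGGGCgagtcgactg
between alpha and beta, chr5:140420957-140420968, - strand: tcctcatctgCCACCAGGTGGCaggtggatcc

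PCDHA7 and PCDHA9 were identical over these 32 bases, PCDHA4 differed from them at 2 bases and PCDHA13 at 5. DAXX was called at the PCDHA13 copy in K/D alone, and the nearest DAXX peaks in either list to the other alpha copies were 25384 to 75046 bp away. Around the intergenic pair, a K/D DAXX peak (chr5:140419316-140419486, place 27415) ended 462 bp before the first match, and a WT H3(Lys4) region (chr5:140419998-140420498) lay between the matches, 39 bp from the first and 459 bp from the second. The K/D DAXX peak lay 11.6 kb before PCDHB1, had no WT counterpart within 25282 bp, and held an AP-1 site 14 bp from its centre. The nearest K/D H3(Lys4) region to it was 10874 bp away. CTCF binding itself was not measured in these libraries.

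The rest of the alpha peaks lay in the long intron that joins the variable exons to the constant ones. The WT peaks at chr5:140350742-140350914 and chr5:140352478-140352650, 4.77 and 6.50 kb after the start of PCDHAC2, stood late in the list, at places 55217 and 55218, and had no K/D counterpart. The first of them lay on H3(Lys4) regions of both cell lines, which were the widest of the region at 2161 bp in WT and 2889 bp in K/D. A K/D peak at chr5:140326233-140326403, between PCDHAC1 and PCDHAC2, had no WT counterpart and lay 3 bp from a K/D H3(Lys4) region. The peak at chr5:140383759-140383931, 37.8 kb after PCDHAC2, was called in both lines, at place 20239 in WT and 12242 in K/D, with no H3(Lys4) region within 26978 bp of the WT peak. A further peak in both lines, chr5:140393861-140394033 in WT, lay past the end of the alpha cluster in intergenic sequence. The peak 37.8 kb after PCDHAC2 is shown for its AP-1 site, TGAGTCA in capitals, whose middle lay 3 bp from the peak centre. The earlier capitals mark a nuclear receptor site on the - strand.
alpha intron, WT DAXX, chr5:140383759-140383931, + strand: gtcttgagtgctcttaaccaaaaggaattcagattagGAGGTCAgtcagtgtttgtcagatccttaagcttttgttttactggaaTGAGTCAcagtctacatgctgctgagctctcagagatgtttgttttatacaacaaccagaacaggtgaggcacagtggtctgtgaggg

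AP-1 sites (TGACTCA or TGAGTCA) recurred under the DAXX peaks of the region. They were found in 6 of 10 WT peaks, against 34.9% of the whole WT list, and in 3 of 9 K/D peaks, against 33.9%. The exact binomial intervals of the region's shares, 26.2 to 87.8% and 7.49 to 70.1%, include the shares of the whole lists. In the 6 WT peaks the closest site lay 2 to 48 bp from the peak centre. The CTCF consensus was found in 1 of 10 WT peaks (exact binomial interval 0.253 to 44.5%), against 0.808% of the whole WT list. It was found in 2 of 9 K/D peaks (2.81 to 60.01%), against 0.884% of the whole K/D list. The WT interval includes the share of its list, and the K/D interval lies above it. Among all the motifs searched in the WT and K/D DAXX peaks, this K/D interval was the only one to leave out its list's share. It rests on 2 peaks. The WT match and 1 of the K/D matches are the same site at DIAPH1, so the WT and K/D counts are not independent.

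At the far end of the gamma cluster, DAXX lay in the shared intron and in DIAPH1, a neighbouring actin-nucleating formin on the opposite strand. The WT peak at chr5:140888892-140889064 lay 20.2 kb after the start of PCDHGC5, in the intron common to all 22 gamma genes, on a WT H3(Lys4) region of 1819 bp, and neither was called in K/D. The peak earliest in the deposited order of the region was the same site in both lists, chr5:140900827-140900999 in WT (place 6831) and chr5:140900806-140900976 in K/D (place 3519), in a DIAPH1 intron 32.2 kb after PCDHGC5. It holds 2 AP-1 sites, in capitals.
DIAPH1 intron, WT DAXX, chr5:140900827-140900999, + strand: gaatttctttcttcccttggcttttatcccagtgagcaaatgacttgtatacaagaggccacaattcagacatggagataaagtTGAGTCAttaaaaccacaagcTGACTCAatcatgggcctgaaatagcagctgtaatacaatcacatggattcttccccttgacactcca
The peak at chr5:140904433-140904605 lay 181 bp before an internal DIAPH1 start in WT and its K/D counterpart 160 bp before it. It holds a CTCF match on the - strand, in capitals, and overlaps a WT H3(Lys4) region.
DIAPH1 internal start, WT DAXX, chr5:140904433-140904605, + strand: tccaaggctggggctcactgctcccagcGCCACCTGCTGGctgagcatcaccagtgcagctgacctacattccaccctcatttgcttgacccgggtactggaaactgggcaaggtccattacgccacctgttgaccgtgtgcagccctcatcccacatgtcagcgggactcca
A WT peak at chr5:140908671-140908843, over a DIAPH1 exon, was not called in K/D. TAF7, a subunit of the general transcription factor TFIID that starts between beta and gamma, had an H3(Lys4) region 0.076 kb from its start in WT and 0.702 kb in K/D, and no DAXX peak within 1 kb.

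Of the 10 WT DAXX peaks, 5 were also called in K/D (50%, exact binomial interval 18.7 to 81.3%), against 48.5% on the rest of chromosome 5. The 4 WT peaks in the first 50% of the deposited list were all kept, against 70.3% on the rest of the chromosome, and 1 of the 6 in the second 50% was kept, against 28.7%. From the K/D side, 5 of 9 peaks (55.6%, 21.2 to 86.3%) were in the WT list, against 68.7%. All 5 of these stood in the first 50% of the K/D list and the 4 K/D peaks without a WT counterpart stood in the second, where the chromosome's shares in the WT list were 86.2% and 50.3%. A peak that was not called in a list is not shown to be empty there, and K/D DAXX had the lower share of tags in peaks. On WT H3(Lys4) regions lay 5 of the 10 WT DAXX peaks (50%), against 37.4% on the rest of the chromosome, and on K/D H3(Lys4) regions 1 of the 9 K/D DAXX peaks (11.1%, 0.281 to 48.2%), against 29.9%.

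H3(Lys4) regions were spread more widely over the members than DAXX. The region held 18 in WT and 18 in K/D, each 21.8 per Mb (12.9 to 34.4), against 24.8 and 25.04 per Mb on the rest of chromosome 5, with ratios of 0.877 (0.520 to 1.39) and 0.869 (0.515 to 1.37). They covered 18.8 kb, or 2.28% of the region, in WT and 15.5 kb, or 1.87%, in K/D, against 2.65% and 2.21% of the rest of the chromosome. Among the stretches of equal length the medians were 20.5 and 19, with 92 stretches below the region in each cell line. The alpha cluster held 7 in WT and 10 in K/D, the beta cluster 1 and 1, and the gamma cluster 4 and 4. Each list also had a stretch of 226 kb without H3(Lys4), which covered the starts of 14 beta genes in WT and 15 in K/D.

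Within 10 kb of a member's start, H3(Lys4) was found at 19 members in WT, against 71.3% of all genes, and at 22 in K/D, against 70.4%. Within 1 kb, counted by the centre, it was found at 8 members in WT, against 46.3%, and at 10 in K/D, against 42.4%. Counted by the nearest edge, 8 members in WT and 11 in K/D had a region within 1 kb, 7 of them in both lines and 12 in either. The 7 were PCDHA5, PCDHA12, PCDHAC1, PCDHAC2, PCDHB2, PCDHGA1 and PCDHGC5. PCDHGA5 was in the WT list alone, with a centre 0.023 kb from its start against 1.28 kb in K/D. PCDHA8, PCDHA13, PCDHB1 and PCDHGB2 were in the K/D list alone by this measure. PCDHA8 had a centre at 0.083 kb and PCDHGB2 at 0.072 kb in K/D, and the nearest centre to PCDHB1 was 3.26 kb away in WT and 0.349 kb away in K/D. Of the 18 WT regions, 10 were also called in K/D (55.6%, 30.8 to 78.5%), against 45.2% on the rest of the chromosome.

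The C-type genes differed among themselves. PCDHAC1 had DAXX and H3(Lys4) on its promoter or first exon in both lines. PCDHAC2 had H3(Lys4) centred 0.763 kb from its start in WT and 0.870 kb in K/D, and its nearest DAXX centre was 4.77 kb away in WT and 19.7 kb in K/D. PCDHGC5 had H3(Lys4) at 0.362 kb in WT and 0.667 kb in K/D, with DAXX at 20.2 and 32.2 kb. PCDHGC3 had its nearest H3(Lys4) at 13.5 and 13.8 kb and PCDHGC4 at 4.46 and 4.76 kb, and their nearest DAXX peaks were 33.4 and 24.3 kb away in WT and 45.3 and 36.3 kb in K/D.

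The members' promoters, taken as 250 bp before to 50 bp after the start, were poorer in G+C than most. Their median was 39.7%, against 63.7% for all protein-coding genes, and the ratio of observed to expected CpG was 0.593 against 0.775. The C-type promoters were richer, at 66.0% in PCDHAC1, 63.0% in PCDHAC2, 60.7% in PCDHGC4, 59.0% in PCDHGC3 and 55.7% in PCDHGC5. SP1 boxes (GGGCGG) were found in 1 of 53 promoters, that of PCDHAC1, against 61.3% of all promoters of this length. The AP-1 site was found in 1 (PCDHA13), against 3.56%, but in 4 (7.55%, against 6.82%) with 500 bp before to 100 bp after the start. The nuclear receptor site (TGACCTC or TGACCTT) was found in 0, against 7.22%, and the CTCF consensus in 0, against 0.480%. The CTCF count covers exact matches to the 12-base pattern only and does not show that the promoters lack CTCF sites. The 12 members with an H3(Lys4) region within 1 kb in either line had a median promoter G+C of 39.0%, and the 41 without had 39.7%.

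First exons were richer, with a median G+C of 53.8% and a CpG ratio of 0.701 over the 53 members, and 56.7% and 0.890 in alpha. DAXX peaks touched 1 first exon in WT, that of PCDHAC1, and 2 in K/D, those of PCDHA13 and PCDHAC1. H3(Lys4) touched 6 in WT and 7 in K/D.

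**Figure D5:**
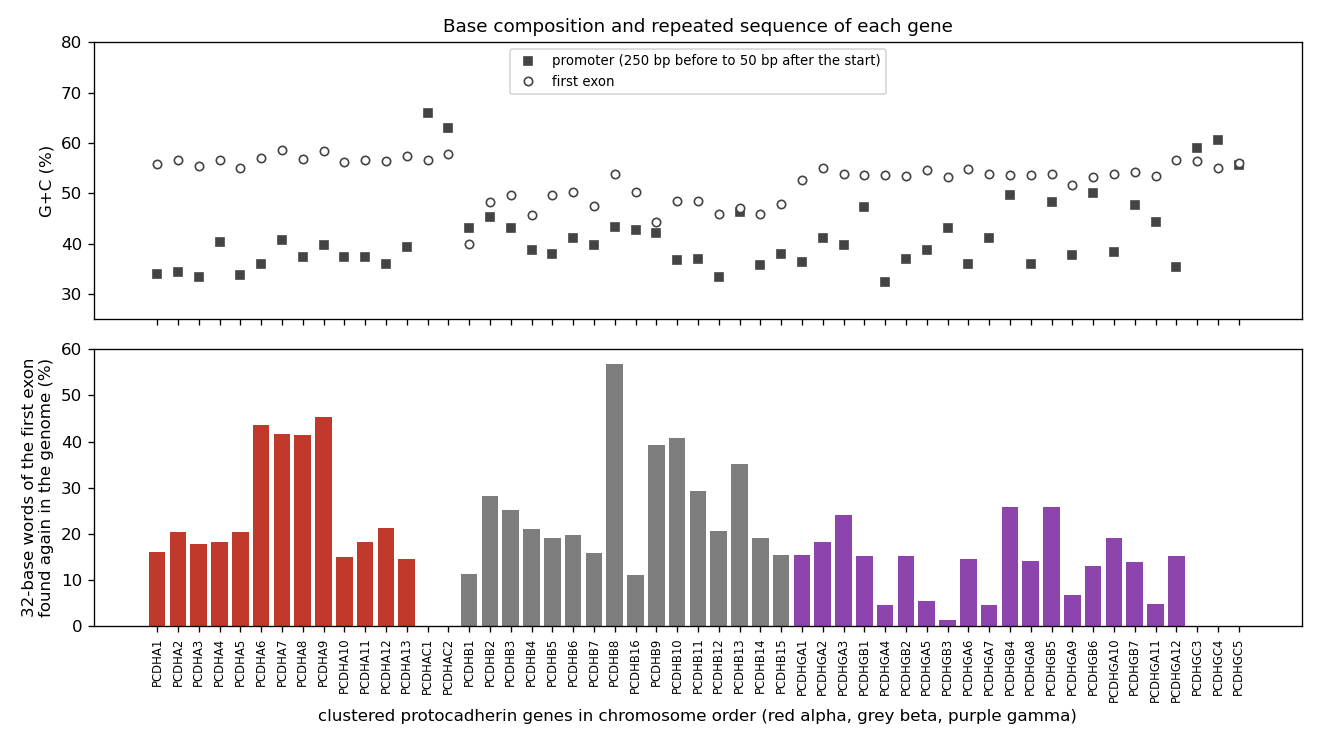
G+C content of each gene's promoter and first exon (top, in %) and the share of the first exon's 32-base words that occur again in the genome (bottom, in %), in chromosome order. The C-type genes have promoters of 55.7% or more and no repeated words, and PCDHB8 has the tallest bar at 56.8%.

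The study kept reads with a single location, so reads that fit more than 1 paralog equally well were not counted. Of the 32-base words in the members' first exons, 18.9% occurred again in the genome, on either strand. By cluster the shares were 21.6% in alpha, 23.9% in beta and 11.7% in gamma. The 5 C-type first exons had 0%, and PCDHB8, at 56.8%, and PCDHA9, at 45.3%, were at the other end. Over the whole region the share was 13.8%, against 14.0% in the 500 kb on either side, and in the stretch without DAXX peaks it was 13.9%. The members' promoters held 1.75%. The part of repeated sequence in the peak counts was not tested.

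Related genes elsewhere were counted in the same way, and their counts are read against the shares of all genes within 10 kb given above (51.2% in WT and 41.8% in K/D for DAXX, 71.3% and 70.4% for H3(Lys4)). Of 13 non-clustered protocadherins, 4 had a DAXX peak within 10 kb in WT and 8 in K/D, and 11 and 9 had H3(Lys4). PCDH7 and PCDH20 had WT DAXX at 0.205 and 0.573 kb. Of 8 classical and related cadherins, 5 had DAXX within 10 kb in WT and 3 in K/D, with 7 and 7 for H3(Lys4). These lists are small, and none of their counts was tested against those shares. Of 16 genes for factors known to act on the clusters, such as CTCF and the cohesin loader NIPBL, 12 had DAXX in WT and 10 in K/D, with 15 and 16 for H3(Lys4). Among cell type markers, all 5 epithelial ones had H3(Lys4) within 10 kb in both lines, and of 5 neuronal ones 3 did in each. Against 71.3% and 70.4% of all genes, counts over so few markers cannot check the cell type. Among luminal prostate genes, TMPRSS2 had a region over its start in WT but none within 10 kb in K/D, and KLK2 and KLK3 had none within 10 kb in either.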

How the data were processed

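Per the labels, the study's methods and the file headers, the authors used CASAVA 1.8.2 for base calling, Bowtie2 2.1.0 for alignment to hg19 (uniquely placed reads only) and HOMER 4.6 for peaks. A peak needed a 4-fold excess over the input of its own cell line and a p-value under 0.0001. The headers also give a 4-fold excess over local signal (10 kb), which removed 0 H3(Lys4) regions. The DAXX and DNMT1 headers give a false discovery rate of 0.001, and the H3(Lys4) headers give none, so the lists were not called alike. The columns used are the deposited start and end positions, in bp. The deposited score column holds 1 value for all peaks, so place in the deposited order stood in for strength, which is less certain for H3(Lys4). Samples were grouped by title. Unplaced and alternative contigs were not used (113 peaks).

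Genes came from GENCODE release 44 mapped to GRCh37 (63781 basic protein-coding starts) and sequence from GRCh37, the build of hg19. Distances run from a peak centre to the nearest start of a gene. Peaks counted as shared from an overlap of 1 bp. Promoters of all genes were searched for motifs on both strands, also ETS and YY1 sites. Intervals are exact Poisson or Clopper-Pearson at 95%. Python 3.11.15, numpy 2.4.6 and pandas 2.3.3 were used, with functions tested on simulated data. Named genes were the C-type genes, members and neighbours with a peak within 1 kb, the nearest and farthest member of each cluster, and the first 5 DAXX peaks. All other DAXX peaks of the region were added, and 1 marker list is not reported in full here. Members and lists were chosen with earlier results of these data known.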

Additional observations from a re-analysis of the deposited data

How the results depend on the processing

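Of 86 alternatives over 23 results, 69 kept the value within its interval or within 1.5 times and 17 moved it. Some within their interval still crossed their comparison. The density ratio of WT H3(Lys4), 0.877, was 1.15 with the first 50% of the list, and that of K/D H3(Lys4), 0.869, was 1.01 with it and 1.03 with the 100 kb flank. With that flank the DNMT1 ratios were 1.54 in WT and 14.1 in K/D, and with lists of equal length the WT DAXX ratio was 0.327. The intervals of the other WT DAXX settings included 1. AP-1 sites were in 7.55% of member promoters with the longer window, against 6.82% of all promoters. The number of members near WT DAXX, 5 within 10 kb, was 3 within 5 kb, 2 within 1 kb, 2 by the peak's edge within 1 kb and 1 with the first 50% of the list, which also gave 1 in K/D. The number near WT H3(Lys4), 19, was 11 within 5 kb, 8 within 1 kb and 8 by the edge, and in K/D the number, 22, was 14, 10 and 11, and 11 with the first 50% of the list. Counting by the edge was chosen after seeing the data. The share of WT DAXX peaks kept was 100% (4 of 4) in the first 50% of the list. The share of WT H3(Lys4) regions kept was 22.2% with centres within 100 bp. The share of WT DAXX peaks on WT H3(Lys4) was 10% by that rule and 0% when 50% of each had to be shared, which the unequal widths of the lists make hard to meet. Nuclear receptor sites were in 9.43% of member promoters with the window of 500 bp before to 100 bp after the start, against 17.0% of all promoters. Shares for DNMT1 gave no value, since the region held 0 peaks. With 1 library per list, no replicate could be left out. No paired analysis was possible because each group has 1 library.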
